A study of Mus musculus with 16 samples.

Results

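The genes described here are 39 mouse genes of glucose and lactate transport, glycolysis, pyruvate entry and the pentose phosphate pathway, with the transcription factor Hif1a. They were chosen as a list of gene symbols and were matched to 40 of the 52636 Ensembl identifiers in the count table. Aldoa matched 2 identifiers. The second, ENSMUSG00000114515, had at most 4 counts in a library and failed the filter on low counts, so 39 of the 40 were tested among 12215 genes.

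RNA was sequenced from 16 cultures of CRAFR26, a mouse embryonic stem cell (ESC) line that carries an inducible c-RAF kinase construct. c-RAF sits above MEK and ERK, and the labels state that adding 4-hydroxytamoxifen (4OHT) to these cells switches ERK on. All cells were routinely grown in 2i/LIF, that is with the GSK3 inhibitor Chir, the MEK inhibitor PD03 and the cytokine LIF, and in all 4 groups PD03 had been replaced for 48 h by 250 nM of the FGF receptor inhibitor PD17. The groups were uninduced cells (0h), cells after 2 h of 250 nM 4OHT (2h), cells after 4 h (4h), and cells given 4 h of 4OHT and then a MEK inhibitor for a further 2 h (rev). A group comprised 4 cultures (clones 4 and 8, with 2 cultures of each), and the labels give no allele by which these clones differ. There was no culture with the vehicle of 4OHT and none kept for the additional 2 h without a MEK inhibitor, so an effect of either cannot be told apart from the comparisons below. In the labels only the clones are called biological. Were the 2 cultures of a clone technical repeats, the p-values would rest on their spread and on differences in response between only 2 clones.

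Glycolysis splits glucose into pyruvate. Glucose enters through GLUT transporters, is trapped by hexokinases, and is committed by phosphofructokinase, which is under the control of fructose-2,6-bisphosphate. Pyruvate is either reduced to lactate, which leaves through monocarboxylate transporters, or enters the mitochondrion and is oxidised by pyruvate dehydrogenase, which pyruvate dehydrogenase kinases (PDKs) switch off and phosphatases switch on. The pentose phosphate pathway branches off at glucose-6-phosphate and supplies NADPH and ribose. ESCs are known for a high glycolytic rate, and Hif1a, Myc family factors and growth factor signalling are known regulators of these genes in many cells.

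Depth was 2172651 to 12680303 counts per library, and the 8 most abundant gene models, none of them a member, took 42.01% to 80.39% of it. The highest share was in the rev library of clone 8 replicate 2. Levels are therefore given as CPM, the counts of a gene per fixed total of counts, on a library size scaled by TMM, a factor that sets the bulk of genes equal between libraries. At this depth 3 counts, taken as the floor of detection, correspond to 0.213 to 1.352 CPM, a limit that covers counting error only. The 8 ESC markers (Pou5f1, Nanog and others) summed to 1590 to 2310 CPM in every library, but each of them was called at 4h against 0h (5 higher, 3 lower, with Nanog at -0.68 and Tdgf1 at 0.60) and 7 in rev against 4h (3 higher, 4 lower). The 5 fibroblast markers summed to 1.87 to 7.66 CPM with Dcn at 0 throughout, and the 5 primitive endoderm markers to 3.26 to 6.76 CPM. Of the 2 tested fibroblast markers, Col1a1 was higher at 2h (1.57, adjusted p = 0.00603) and in rev (1.93, adjusted p = 0.00136) than at 0h, at 0.298 to 0.815 CPM at 0h, 0.876 to 1.81 at 2h, 0.584 to 1.33 at 4h and 1.60 to 2.70 in rev, levels close to the floor, and Thy1 was called in neither. The mesoderm markers T, Mixl1 and Eomes summed to 5.56 to 8.96 CPM at 0h, 16.3 to 25.5 CPM at 4h and 6.96 to 10.2 CPM in rev, and the 3 neural markers to 1.49 to 3.70 CPM at 0h, 4.21 to 4.67 CPM at 4h and 4.37 to 7.38 CPM in rev, where both tested ones, Pax6 and Sox1, were higher than at 0h (1.34 and 1.12). ESC, mesoderm and neural markers and Col1a1 thus moved over the same comparisons as members did, and their part in the results below was not tested. In bulk RNA, fewer cells of a kind and less RNA per cell cannot be told apart.

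The promoters of the 4 members that rose between 2h and 4h of induction (Hk2, Pdk1, Slc16a1 and Ldha) are shown here because all 4 were called higher in that step. The calls of Hk2 and Pdk1 held without any 1 library, while those of Slc16a1 and Ldha were near the threshold, with overlapping groups, and were lost in 7 and 6 of 8 fits without 1 library. Whether the 4 genes moved together was not tested. Each is the 250 bases before the RefSeq start in GRCm38.p6, the patch release of the mm10 assembly, read 5′ to 3′ on the strand of the gene. Capitals mark every match, on either strand, to ACGTG or GCGTG, the cores of hypoxia response elements, and to CACGTG, the E-box, which contains ACGTG. The windows are chr6:82774455-82774704 (minus strand) for Hk2, chr2:71872974-71873223 (plus) for Pdk1, chr3:104638414-104638663 (plus) for Slc16a1 and chr7:46845554-46845803 (plus) for Ldha.
Hk2: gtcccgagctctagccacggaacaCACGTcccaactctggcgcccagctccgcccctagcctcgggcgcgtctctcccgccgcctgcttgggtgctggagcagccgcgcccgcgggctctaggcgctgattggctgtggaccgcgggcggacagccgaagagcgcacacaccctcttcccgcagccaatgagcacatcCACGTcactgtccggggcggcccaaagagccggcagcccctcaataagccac
Pdk1: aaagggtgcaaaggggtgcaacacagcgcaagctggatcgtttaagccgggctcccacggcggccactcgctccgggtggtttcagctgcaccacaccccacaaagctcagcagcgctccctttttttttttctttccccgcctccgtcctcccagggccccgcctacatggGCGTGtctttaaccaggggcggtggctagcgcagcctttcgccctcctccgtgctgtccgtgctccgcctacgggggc
Slc16a1: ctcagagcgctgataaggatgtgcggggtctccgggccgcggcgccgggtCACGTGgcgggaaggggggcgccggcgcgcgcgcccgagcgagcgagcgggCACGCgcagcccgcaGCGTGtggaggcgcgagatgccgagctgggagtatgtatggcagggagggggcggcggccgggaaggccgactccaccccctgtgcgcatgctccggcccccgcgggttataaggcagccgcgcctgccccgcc
Ldha: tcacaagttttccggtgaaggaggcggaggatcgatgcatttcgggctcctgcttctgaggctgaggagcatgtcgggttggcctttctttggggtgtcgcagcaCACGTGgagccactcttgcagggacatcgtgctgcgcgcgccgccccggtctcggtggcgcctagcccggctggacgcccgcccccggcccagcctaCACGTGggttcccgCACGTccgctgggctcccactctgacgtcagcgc
The Ldha window holds 2 E-boxes, the Slc16a1 window 1, and those of Hk2 and Pdk1 none. For Ldha the RefSeq window with the most matches to ACGTG or GCGTG was printed, and for the other genes the first one listed. The matches of Ldha thus cannot be set against those of the others. Its window lies inside the annotated gene (chr7:46841475-46855627). Over all members, 37 of 39 symbols had a promoter in the RefSeq table, with 54 windows between them. ACGTG or GCGTG was present in 42 of these 54 windows (77.8%) against 38.6% of all 32851 windows in the table, and CACGTG in 13.0% against 6.02%. The ETS core CCGGAAG was present in 3.7% against 6.91%, and the AP-1 site TGACTCA or TGAGTCA in 1.85% against 4.46%. The median GC content was 60.8% in member windows and 52.4% in all, with a median of 14 against 6 CpG dinucleotides, and each of these motifs except the AP-1 site contains a CpG. Windows of 1 gene can overlap, and a match is a string of letters, not a bound site.

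**Figure D1:**
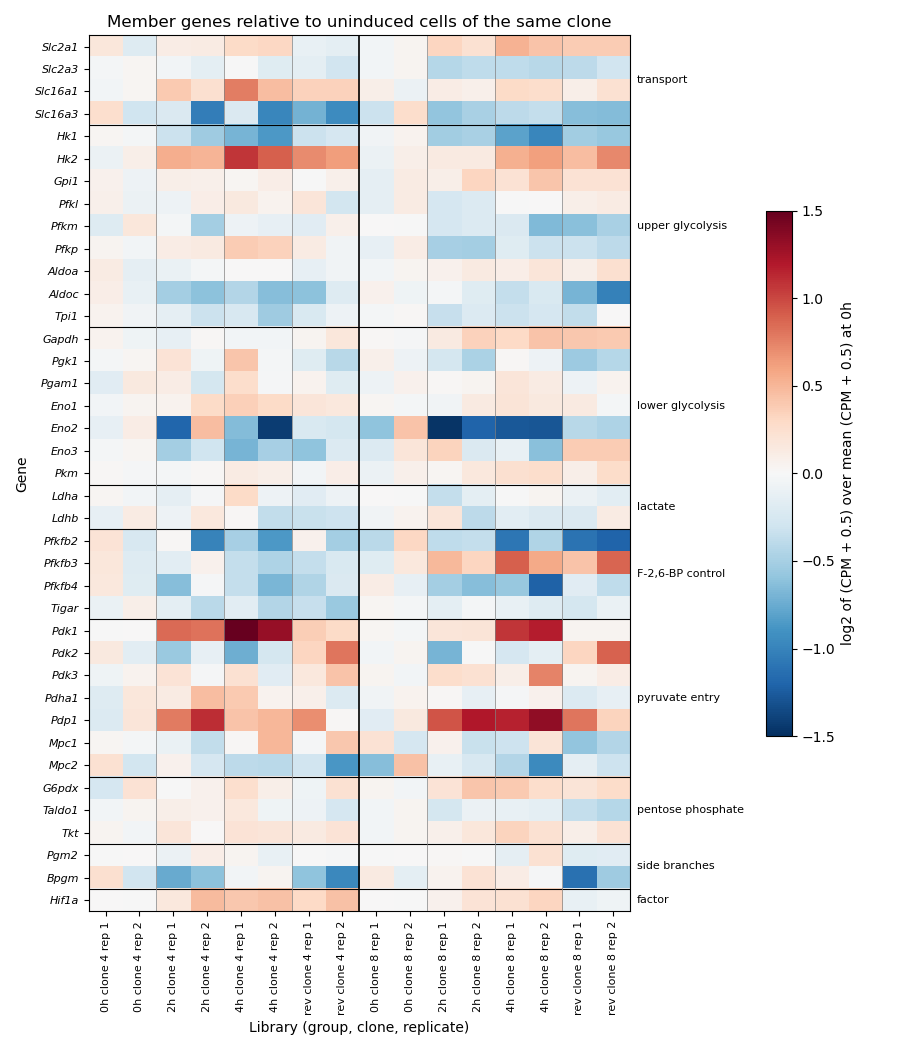
Each row is a tested member and each column a library. Colour gives log2 of (CPM + 0.5) over the mean (CPM + 0.5) of the 0h libraries of the same clone, from -1.5 (blue) to 1.5 (red), and the black vertical line parts clone 4 (left) from clone 8. Pdk1 and Hk2 are red in all 4 libraries at 4h and Hk1 is blue there, while Gapdh, Pkm, Aldoa and most other rows of the main chain stay pale.

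Before induction the most abundant transcripts per kilobase of exon were Aldoa with 149 CPM per kb, Gapdh with 98.0, Pkm with 94.3, the glucose transporter Slc2a3 with 88.2 and Ldha with 46.7. Gapdh (77.8 to 116 CPM per kb over the 4 libraries), Pkm (89.0 to 104) and Slc2a3 (74.2 to 103) overlapped, so their order is within their spread. At the other end stood Pdp1 with 0.473, Pfkfb4 with 0.574 and Pfkfb2 with 0.595 CPM per kb. For most steps a single isoform gave most of the signal: at 0h Aldoa stood at 149 CPM per kb and Aldoc at 1.88, Eno1 at 23.8 and Eno2 at 0.706, and Pfkp at 14.0 against 4.87 for Pfkl and 4.01 for Pfkm. Taken as a sum, the members took 0.965% ± 0.101 (SD, n = 4) of the counts outside the 8 most abundant models at 0h, 0.906% ± 0.0723 after 2 h, 0.961% ± 0.082 after 4 h and 0.911% ± 0.0905 with the MEK inhibitor. The 4 group ranges of this share overlapped.

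Within 2 h of induction 3 members rose (Hk2, Pdk1 and Pdp1) and 5 fell (Slc2a3, Slc16a3, Hk1, Tpi1 and Eno2). Of all 12215 genes, 11.4% rose and 9.68% fell in this comparison, so 3 and 5 of 39 are near the background. At 4h against 0h, 9 members rose (Slc2a1, Slc16a1, Hk2, Gpi1, Eno1, Pdk1, Pdp1, Tkt and Hif1a) and 8 fell (Slc2a3, Slc16a3, Hk1, Tpi1, Eno2, Pfkfb2, Pfkfb4 and Tigar), beside 17.2% and 16.8% of all genes. The members did not move as a block: their median log2 fold change was -0.07 at 2h and 0.08 at 4h, beside -0.02 for all genes in both. Between 2h and 4h, 4 members rose (Slc16a1, Hk2, Ldha and Pdk1) and Hk1 fell, beside 3.8% and 3.52% of all genes.

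After the MEK inhibitor (rev against 4h), Hk1 and Pdk2 rose and Slc2a1, Pgk1, Pdk1 and Bpgm fell, beside 7.93% and 8.43% of all genes. The median of the members was -0.08 and that of all genes 0.01. Against 0h, rev cells had 3 members higher (Slc16a1, Hk2 and Gapdh) and 8 lower (Slc2a3, Slc16a3, Hk1, Aldoc, Pgk1, Tigar, Taldo1 and Bpgm), beside 12.4% and 9.86% of all genes. The comparisons share their 0h and 4h libraries. Over the 5 comparisons 24 of the 39 tested members were called at least once and 15 never, beside 48.4% of all tested genes called at least once. For 3 members, Pdk1, Eno2 and Pdp1, a called log2 fold change reached 1 in size, and that of Pdk2 was 0.995. Of the 47 called values behind these counts, 23 passed the test in a fit to clone 4 alone and 26 in a fit to clone 8 alone, each with fewer libraries, and none turned its direction there. With libraries scaled by size alone 17 passed it. Counting by libraries rather than by the test, all 4 libraries of one group lay above all 4 of the other for 3 members and below for 1 at 2h against 0h (8.83% and 6.62% of all genes), for 4 and 3 at 4h against 0h (12.3% and 10.8%), for 3 and 1 at 4h against 2h (4.32% and 4.03%), for 2 and 5 in rev against 4h (6.48% and 6.79%), and for 2 and 6 in rev against 0h (9.59% and 7.19%). Calls are edgeR quasi-likelihood tests at an adjusted p under 0.05.

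Several of these counts changed when 1 library was left out, and so did those of all 12215 genes. Without the 0h library of clone 8 replicate 2, 1 member fell at 2h, 4 fell at 4h and 1 was higher in rev than at 0h. Of all genes 740, 1641 and 1283 did so, beside 1182, 2048 and 1518 with all libraries. The number that fell at 2h was 3 without the 2h library of clone 4 replicate 2 and 2 without that of clone 8 replicate 1 (1090 and 818 of all genes). The number that fell at 4h was 4 without the 4h library of clone 4 replicate 2 and 5 without that of clone 8 replicate 1 (1763 and 1747 of all genes). Between 2h and 4h, 2 members rose, Hk2 and Pdk1, without any 1 of the 2h libraries of clone 4 replicate 1, clone 8 replicate 1 and clone 8 replicate 2 or of the 4h libraries of replicate 1 of either clone. Of all genes 301 to 362 rose in these fits, beside 464 with all libraries. Whether members changed more than other genes was not tested.

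**Figure D2:**
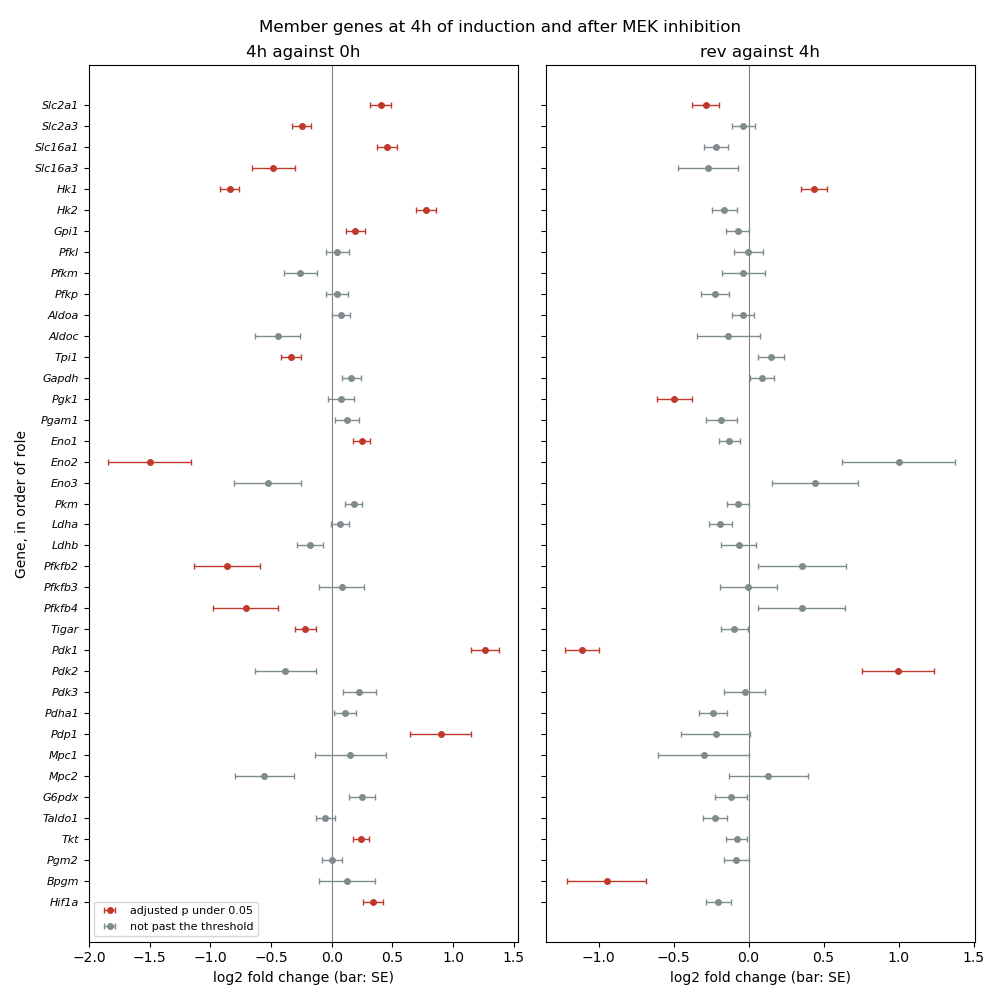
Points are log2 fold changes of the 39 tested members, ordered by role, with bars of 1 SE, for 4h against 0h (left) and rev against 4h (right). Red points had an adjusted p under 0.05. Pdk1 lies at 1.26 on the left and -1.11 on the right, Hk2 at 0.78 and -0.16, and Hk1 at -0.84 and 0.44.

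Of the 4 transporters 2 were called higher at 4h and 2 lower, beside 17.2% and 16.8% of all genes. The calls of the 2 that fell depended on the libraries and fits used, as given below. Slc2a1 (GLUT1) and Slc16a1 (MCT1, which carries lactate and pyruvate) rose at 4h, while Slc2a3 (GLUT3, the high-affinity glucose transporter) and Slc16a3 (MCT4, a lactate exporter) fell. Slc2a1 (chr4:119108711-119137983) was at 80.7 and 62.8 CPM in clone 4 and 43.9 and 46.2 in clone 8 at 0h. It was at 77.3, 77.9, 56.3 and 52.7 CPM at 2h, in the same order of clones and replicates, and at 87.7, 89.4, 64.9 and 60.5 at 4h. In rev it was at 66.2, 64.9, 58.7 and 58.6 CPM. The groups overlapped because the clones stood apart, but within each clone both 4h libraries were above both 0h libraries. Its log2 fold change was 0.40 ± 0.085 (SE) at 4h (adjusted p = 4.1e-04) and -0.29 ± 0.087 in rev against 4h (adjusted p = 0.0199). Relative to 0h, rev was at 0.12 (adjusted p = 0.37), with -0.12 in clone 4 alone and 0.39 in clone 8 alone. The fall in rev missed the threshold in 4 of the 8 fits that each left out 1 library (without the 4h libraries of clone 4 replicate 2 or clone 8 replicate 1, or either rev library of clone 4), with -0.36 to -0.23 over the 8. It was -0.45 in clone 4 alone and -0.10 (adjusted p = 0.696) in clone 8 alone.

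Slc2a3 (chr6:122727809-122801640) was the transporter with the highest level per kilobase. At 0h it was at 538 and 563 CPM in clone 4 and 707 and 749 in clone 8, and at 2h at 536, 497, 539 and 557. At 4h it was at 550.0, 486, 558 and 544 CPM, and in rev at 499, 452, 553 and 594. The high values were the 2 uninduced libraries of clone 8, and the 0h and 4h ranges overlapped. The log2 fold change was -0.26 ± 0.078 at 2h (adjusted p = 0.0171), -0.25 ± 0.078 at 4h (adjusted p = 0.0129) and -0.28 ± 0.078 in rev against 0h (adjusted p = 0.00851). Rev differed from 4h by -0.03 (adjusted p = 0.813). Without the 0h library of clone 8 replicate 2 the values at 2h and 4h were both -0.20 and missed the threshold, and without the 2h library of clone 8 replicate 1 the 2h value was -0.22 and missed it. In clone 4 alone the values at 2h and 4h were -0.10 (adjusted p = 0.639) and -0.09 (adjusted p = 0.595), and in clone 8 alone -0.40 and -0.39.

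Slc16a1 (chr3:104638668-104658462) was at 59.2 and 62.2 CPM in clone 4 and 70.3 and 62.3 in clone 8 at 0h. It was at 79.7, 71.8, 71.9 and 69.8 CPM at 2h, 104, 83.9, 81.3 and 79.5 at 4h, and 77.1, 77.5, 70.4 and 78.0 in rev. All 4h libraries lay above all 0h and all rev libraries. Slc16a1 rose by 0.45 ± 0.081 at 4h (adjusted p = 4.47e-05) and by 0.25 ± 0.08 between 2h and 4h (adjusted p = 0.0492). It was 0.24 ± 0.084 higher in rev than at 0h (adjusted p = 0.037), and rev was at -0.22 relative to 4h (adjusted p = 0.0662, and 0.042 when only the 4h and rev libraries were fitted). The step from 2h to 4h missed the threshold in 7 of the 8 fits that left out 1 library (0.16 to 0.28), in all but that without the 4h library of clone 8 replicate 2. The rev value missed it in 6 of 8 (0.20 to 0.30), in all but those without replicate 1 of clone 8 at 0h or in rev.

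Slc16a3 (chr11:120948480-120960868) was a low transcript, at 13.6 and 9.10 CPM in clone 4 and 9.17 and 14.0 in clone 8 at 0h. It was at 9.71, 5.26, 7.52 and 8.10 CPM at 2h, 9.68, 5.49, 8.74 and 8.95 at 4h, and 6.72, 5.65, 7.29 and 7.21 in rev. All rev libraries lay below all 0h libraries, whereas the 2h and 4h ranges reached into the 0h range. It fell by 0.52 ± 0.168 on the log2 scale at 2h (adjusted p = 0.0257), by 0.48 ± 0.176 at 4h (adjusted p = 0.0322) and by 0.76 ± 0.19 in rev against 0h (adjusted p = 0.00399). Rev was at -0.27 relative to 4h (adjusted p = 0.385). The 2h call was lost in 5 of 8 fits without 1 library (-0.67 to -0.35; without either 2h library of clone 8, the 2h library of clone 4 replicate 2, or the 0h libraries of clone 4 replicate 1 and clone 8 replicate 2). The 4h call was lost in 4 of 8 (-0.65 to -0.32, without the same 0h libraries, or the 4h libraries of clone 4 replicate 2 and clone 8 replicate 1), and the rev call in none. With DESeq2 the 2h and 4h calls were lost too (adjusted p = 0.05 and 0.0586). At 4h Slc16a3 was -0.50 (adjusted p = 0.135) in clone 4 alone and -0.42 (adjusted p = 0.182) in clone 8 alone. At 2h these values were -0.36 (adjusted p = 0.482) and -0.60 (adjusted p = 0.021).

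**Figure D3:**
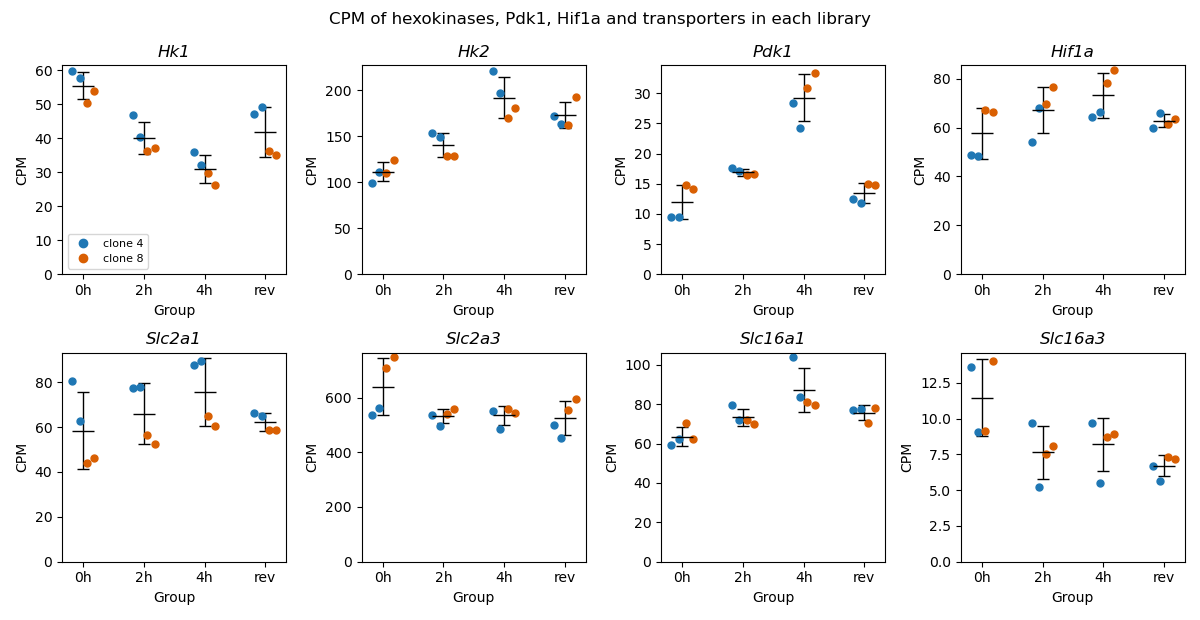
CPM of 8 members in each library (vertical axis, from 0) by group (horizontal axis), with clone 4 in blue and clone 8 in orange. Black bars give the mean and SD over the 4 libraries. Hk1 and Hk2 move in opposite directions from 0h through 2h to 4h with no overlap between those groups, and Pdk1 is highest at 4h and back near its 0h level in rev.

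Of the 9 tested members of glucose phosphorylation and the upper chain, Hk2 and Gpi1 rose at 4h, Hk1 and Tpi1 fell, and Pfkl, Pfkm, Pfkp, Aldoa and Aldoc did not pass the test. Of all genes, 17.2% rose and 16.8% fell in this comparison. The 2 hexokinases moved in opposite directions. Both make glucose-6-phosphate, HK1 being the widespread form and HK2 the form that is known to be regulated by growth and insulin signals. Hk2 (chr6:82725025-82774454) was at 98.9 and 111.7 CPM in clone 4 and 110.5 and 124 in clone 8 at 0h. At 2h it was at 153, 149.8, 129 and 129 CPM, and at 4h at 221, 197, 169.6 and 181. In rev it was at 172, 163.5, 163 and 193 CPM. Every 2h library lay above every 0h library and every 4h library above every 2h library, while rev overlapped 4h. Hk2 rose by 0.31 ± 0.085 at 2h (adjusted p = 0.00755), 0.78 ± 0.084 at 4h (adjusted p = 6.12e-09) and 0.46 ± 0.083 between 2h and 4h (adjusted p = 2.77e-04). In rev it was still 0.61 ± 0.086 above 0h (adjusted p = 3.03e-06), with 0.26 (adjusted p = 0.462) when libraries were scaled by size alone, and relative to 4h it was at -0.16 ± 0.084 (adjusted p = 0.193), with -0.33 (adjusted p = 0.0181) in clone 4 alone and 0.01 (adjusted p = 0.975) in clone 8 alone.

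Hk1 (chr10:62268855-62379908) was at 59.7 and 57.6 CPM in clone 4 and 50.5 and 54.0 in clone 8 at 0h. It was at 46.7, 40.3, 36.2 and 37.2 CPM at 2h, 36.0, 32.1, 29.6 and 26.3 at 4h, and 47.0, 49.3, 36.1 and 35.2 in rev. No 2h library reached a 0h library and no 4h library reached a 2h library, and rev lay below 0h in all 4. Hk1 fell by 0.46 ± 0.076 at 2h (adjusted p = 3.27e-05), by 0.84 ± 0.08 at 4h (adjusted p = 3.38e-10) and by 0.38 ± 0.082 between 2h and 4h (adjusted p = 0.00211). It then rose by 0.44 ± 0.084 in rev against 4h (adjusted p = 3.41e-04) and remained 0.41 ± 0.08 below 0h (log2 fold change -0.41, adjusted p = 3.3e-04). Each hexokinase call held without any 1 of the libraries of its comparison. The Hk1 value in rev against 4h was 0.01 (adjusted p = 0.987) when libraries were scaled by size alone, 0.48 in clone 4 alone and 0.35 (adjusted p = 0.142) in clone 8 alone. The Hk2 value at 2h was 0.51 in clone 4 alone and 0.14 (adjusted p = 0.368) in clone 8 alone.

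Because both genes are read from the same library, their ratio does not depend on how libraries are scaled. Per kilobase, Hk2 stood at 2.89 ± 0.412 (SD, n = 4) times Hk1 in uninduced cells, 5.01 ± 0.26 times at 2h, 8.89 ± 0.681 times at 4h and 6.07 ± 1.39 times in rev. The ratio was 2.36, 2.77, 3.13 and 3.29 in the 0h libraries, 4.69 to 5.31 at 2h, 8.18 to 9.82 at 4h, and in rev 5.24 and 4.74 in clone 4 and 6.43 and 7.86 in clone 8. The ranges of 0h, 2h and 4h did not overlap, and that of rev lay between 0h and 4h and overlapped 2h. These ratios restate the 2 calls above and were not tested.

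**Figure D4:**
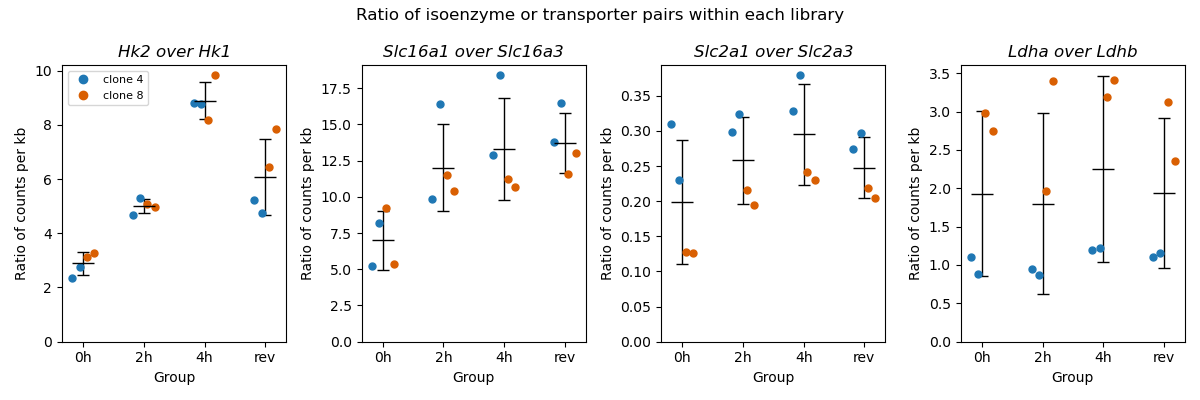
Ratio of counts per kilobase of exon (vertical axis, from 0) of 4 gene pairs within each library, by group, with clone 4 in blue, clone 8 in orange and black bars for mean and SD over 4 libraries. The Hk2 to Hk1 ratio climbs from 2.89 at 0h to 8.89 at 4h in both clones, while the Ldha to Ldhb ratio parts the clones in every group.

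Tpi1, triose phosphate isomerase, carried a fall at 2h and 4h inside a large difference between clones. At 0h it was at 62.7 and 58.3 CPM in clone 4 and 112.1 and 116 in clone 8. At 2h it was at 55.1, 48.2, 89.8 and 98.5 CPM, at 4h at 51.3, 41.6, 91.1 and 95.5, and in rev at 51.4, 57.6, 88.0 and 114. Within each clone both 4h libraries were below both 0h libraries. It fell by 0.24 ± 0.082 on the log2 scale at 2h (adjusted p = 0.031) and by 0.33 ± 0.083 at 4h (adjusted p = 0.00202). The 2h call was lost without the 0h library of clone 8 replicate 2 (-0.23), the 2h library of clone 4 replicate 2 (-0.23) or that of clone 8 replicate 1 (-0.20). Gpi1, glucose-6-phosphate isomerase, rose by 0.19 ± 0.076 at 4h (adjusted p = 0.0469) from 129 to 156 CPM at 0h to 152 to 189.7 at 4h, a call that was lost in 6 of 8 fits without 1 library (0.12 to 0.24), in all but those without replicate 1 of clone 4. It was 0.08 (adjusted p = 0.607) in clone 4 alone and 0.33 in clone 8 alone. Aldoc, the brain-type aldolase, was at 5.67 to 6.79 CPM at 0h and 2.70 to 5.43 in rev (-0.58 ± 0.199, adjusted p = 0.0324), without overlap, and that call was lost in 6 of 8 such fits (-0.73 to -0.48), in all but those without 0h clone 8 replicate 2 or rev clone 4 replicate 2. Gpi1 shares 741 exon bases with an antisense lincRNA and Tpi1 34 with Spsb2, and since the strand setting of the counting was not given, reads there could not be assigned. The muscle, liver and platelet phosphofructokinases Pfkm, Pfkl and Pfkp and the aldolase Aldoa were called in none of the 5 comparisons.

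In the lower chain, 1 of 7 members rose at 4h (Eno1), 1 fell (Eno2) and 5 did not pass the test, beside 17.2% of all genes higher and 16.8% lower. Pgk1, phosphoglycerate kinase (chrX:106187100-106203699), fell after the MEK inhibitor. It was at 22.5 and 23.4 CPM in clone 4 and 29.6 and 26.6 in clone 8 at 0h, and at 26.5, 21.9, 23.4 and 20.02 at 2h. It was at 30.9, 22.4, 28.5 and 26.6 CPM at 4h and 20.2, 17.2, 19.1 and 20.7 in rev. All rev libraries lay below all 0h and all 4h libraries. The log2 fold change was -0.49 ± 0.117 in rev against 4h (adjusted p = 0.00292) and -0.42 ± 0.119 in rev against 0h (adjusted p = 0.0104), and 0.08 at 4h against 0h (adjusted p = 0.618). In clone 4 alone rev was at -0.51 against 4h (adjusted p = 0.0181) and -0.29 against 0h (adjusted p = 0.265). In clone 8 alone these were -0.49 (adjusted p = 0.0654) and -0.50 (adjusted p = 0.0235). Of the 50-base exon windows of Pgk1, 53.9% also occur elsewhere in the annotation, almost all in Pgk1-rs7, so its counts are uncertain.

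Gapdh, the enzyme whose transcript is often used as a loading control, was at 349 and 321 CPM in clone 4 and 481 and 469 in clone 8 at 0h. It was at 308, 338, 523 and 603 CPM at 2h, 326, 326, 584 and 637 at 4h, and 345, 377, 629 and 621 in rev. Clone 8 was above clone 4 in every group, and the 4 clone 8 libraries of 4h and rev lay above the 2 of 0h. Gapdh was higher by 0.25 ± 0.079 on the log2 scale in rev against 0h (adjusted p = 0.0213) and at 0.16 at 4h (adjusted p = 0.112). At 4h it was -0.04 in clone 4 alone and 0.38 (adjusted p = 0.0107) in clone 8 alone. The test of that difference between clones gave 0.40 with an adjusted p of 0.206. The rev call was lost in 4 of 8 fits without 1 library (0.20 to 0.32; without either 0h library of clone 8, rev clone 4 replicate 2 or rev clone 8 replicate 1), it was 0.10 (adjusted p = 0.594) in clone 4 alone and 0.41 (adjusted p = 0.009) in clone 8 alone, it missed the threshold without the clone covariate (0.28, adjusted p = 0.528) and it was -0.07 when libraries were scaled by size alone. Of the exon windows of Gapdh, 24.7% recur in 218 other genes.

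Pkm, pyruvate kinase, the last step of the chain, passed the test in none of the 5 comparisons. It was at 458, 445, 463 and 520.4 CPM at 0h, 444, 458, 502 and 549.7 at 2h, 492, 481, 581 and 589 at 4h, and 438, 485, 524 and 598 in rev. Within each clone both 4h libraries were above both 0h libraries. Its log2 fold change at 4h was 0.18 ± 0.072 (adjusted p = 0.0527), a value on the threshold: DESeq2 gave an adjusted p of 0.0151. Of the enolases, Eno1, the ubiquitous form, rose by 0.24 ± 0.071 at 4h (adjusted p = 0.00738) from 107 to 148 CPM to 134 to 166. Eno1 was 0.33 (adjusted p = 0.0135) in clone 4 alone and 0.18 (adjusted p = 0.21) in clone 8 alone. Without the clone covariate it was 0.23 (adjusted p = 0.187), and with library size alone 0.35 (adjusted p = 0.429). Eno2, the neuronal form, fell from 2.41 to 5.45 CPM at 0h to 0.906 to 3.94 at 2h (-1.39, adjusted p = 0.00128) and to 0.701 to 1.54 at 4h (-1.5 ± 0.343, adjusted p = 9.1e-04). The levels of Eno2 at 2h and 4h are near the floor of 3 counts, and without the 0h library of clone 8 replicate 2 its 2h value was -0.93 and missed the threshold, as did that of clone 4 alone (-0.77, adjusted p = 0.404). Pgam1, Eno1 and Pkm share 36.2%, 26.0% and 25.8% of their exon windows with other annotated genes, which makes their counts uncertain.

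Lactate dehydrogenase subunits Ldha (which favours lactate formation) and Ldhb (which favours pyruvate) were set apart by clone more than by treatment. Ldha was at 120.6 and 114.9 CPM in clone 4 and 193 and 190.3 in clone 8 at 0h. It was at 107, 116, 149.6 and 174 CPM at 2h, 144, 111, 191 and 197 at 4h, and 105, 111, 181 and 172 in rev. The groups overlapped throughout. Ldha rose by 0.24 ± 0.077 between 2h and 4h (adjusted p = 0.0486), a call lost in 6 of 8 fits without 1 library (0.16 to 0.30), in all but those without replicate 2 of clone 4, and at 4h against 0h it was at 0.07 (adjusted p = 0.528). Ldhb was called in none of the 5 comparisons. Per kilobase, Ldha stood at 0.873 to 1.22 times Ldhb in the clone 4 libraries and 1.96 to 3.41 times in those of clone 8.

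Of the 4 genes that set fructose-2,6-bisphosphate, the allosteric activator of phosphofructokinase, 3 fell at 4h, none rose and Pfkfb3 did not pass the test, beside 16.8% and 17.2% of all genes lower and higher. The bifunctional kinase and phosphatase Pfkfb2 went from 2.73 to 5.70 CPM at 0h to 1.52 to 3.30 at 4h (-0.87 ± 0.271, adjusted p = 0.0128). Pfkfb4 went from 2.24 to 3.53 CPM to 0.789 to 2.31 (-0.71 ± 0.27, adjusted p = 0.0398). Tigar, a phosphatase that lowers fructose-2,6-bisphosphate, went from 38.0 to 66.6 CPM to 29.8 to 60.4 (-0.22 ± 0.084, adjusted p = 0.0443) and was at 27.4 to 60.9 CPM in rev (-0.31 ± 0.087 against 0h, adjusted p = 0.00943). All 3 ranges overlapped between 0h and 4h. The Pfkfb4 and Tigar calls at 4h were lost with DESeq2 (adjusted p = 0.0832 and 0.0678) and in 6 and 5 of 8 fits without 1 library (-0.89 to -0.60 and -0.27 to -0.16), and that of Pfkfb2 without the 0h library of clone 8 replicate 2 (-0.62) or the 4h library of clone 4 replicate 2 (-0.75). The rev call of Tigar was lost without the 0h library of clone 4 replicate 2 (-0.25). In clone 8 alone Tigar was -0.13 at 4h (adjusted p = 0.406) and -0.18 in rev against 0h (adjusted p = 0.30). Pfkfb3 was at 12.8 and 9.85 CPM in clone 4 and 3.86 and 5.02 in clone 8 at 0h, and at 8.69, 8.06, 8.74 and 6.84 at 4h, so both clone 4 libraries were lower at 4h than at 0h and both clone 8 libraries higher. The test of that difference between clones gave 1.19 with an adjusted p of 0.0951. Pfkfb2 shares 15.9% of its exon windows with another annotated gene on its strand.

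At pyruvate entry, Pdk1 and Pdp1 rose at 2h and at 4h, the other 5 of 7 members did not pass the test at either time, and Pdk1 had the largest called rise of any member at 4h. Of all genes, 11.4% rose at 2h and 17.2% at 4h. Pdk1, a kinase that inhibits pyruvate dehydrogenase and a known Hif1a target (chr2:71873224-71903858), was at 9.51 and 9.55 CPM in clone 4 and 14.8 and 14.1 in clone 8 at 0h. It was at 17.6, 17.1, 16.4 and 16.5 CPM at 2h and at 28.4, 24.3, 30.9 and 33.4 at 4h. In rev it was at 12.47, 11.7, 14.9 and 14.9 CPM. Each induced group lay above the one before it, all rev libraries lay below all 4h and all 2h libraries, and rev overlapped 0h. The log2 fold change was 0.44 at 2h, 1.26 ± 0.112 at 4h (adjusted p = 6.75e-11), 0.82 ± 0.104 between 2h and 4h (adjusted p = 1.18e-06) and -1.11 ± 0.114 in rev against 4h (adjusted p = 6.92e-09). Rev differed from 0h by 0.15 ± 0.13 (adjusted p = 0.422), which was -0.16 with library size alone. The 2h value was 0.86 (adjusted p = 0.00236) in clone 4 alone and 0.20 (adjusted p = 0.332) in clone 8 alone. Each of its 4 called changes held without any 1 of the libraries concerned.

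Pdk1 and Hk2 thus rose over the same hours. In rev against 4h Pdk1 was called lower in both clones, and Hk2 in clone 4 alone and not in clone 8 alone or over both, and the difference between these 2 genes was not tested. Pdk2, a further kinase of the complex, had 1.54 to 3.68 CPM at 4h and 3.73 to 8.11 in rev, without overlap (0.995 ± 0.242, adjusted p = 0.00367). Pdp1, the phosphatase that reactivates pyruvate dehydrogenase, rose from 1.45 to 2.98 CPM at 0h to 3.72 to 6.13 at 2h (1.09, adjusted p = 8.43e-04) and 3.63 to 4.999 at 4h (0.90 ± 0.25, adjusted p = 0.00564), in both without overlap. Pdp1 at 4h was 0.48 (adjusted p = 0.336) in clone 4 alone and 1.43 (adjusted p = 0.00509) in clone 8 alone, and at 2h 0.92 (adjusted p = 0.115) and 1.27 (adjusted p = 0.0047). Pdk2 in rev against 4h was 0.60 (adjusted p = 0.162) when libraries were scaled by size alone, 1.03 (adjusted p = 0.057) without the clone covariate, 1.15 (adjusted p = 0.0171) in clone 4 alone and 0.80 (adjusted p = 0.222) in clone 8 alone. Pdp2, the other phosphatase of the complex and no member, moved the opposite way to Pdp1 at 4h. It was at 150.7 to 168.6 CPM at 0h, 165.1 to 195.4 at 2h, 90.42 to 131.0 at 4h and 101.5 to 141.1 in rev, so all 4h and all rev libraries lay below all 0h and 2h libraries. Its log2 fold change was -0.61 ± 0.085 at 4h (adjusted p = 9.86e-07), with -0.84 in clone 4 alone, -0.35 in clone 8 alone and -0.49 (adjusted p = 0.209) when libraries were scaled by size alone, and -0.48 in rev against 0h (adjusted p = 1.18e-04). Pdk3, Pdha1 (a subunit of the dehydrogenase) and the mitochondrial pyruvate carrier genes Mpc1 and Mpc2 were called in none of the 5 comparisons.

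In the pentose phosphate pathway, 1 of 3 members rose at 4h and none fell, beside 17.2% and 16.8% of all genes. G6pdx, glucose-6-phosphate dehydrogenase, which opens the branch, was at 16.02, 22.4, 20.6 and 19.6 CPM at 0h, 19.2, 20.1, 23.1 and 26.8 at 2h, 22.9, 20.4, 26.6 and 24.2 at 4h, and 18.3, 22.6, 23.0 and 24.3 in rev. The groups overlapped, and its log2 fold change at 4h was 0.25 ± 0.107 (adjusted p = 0.068), with 0.39 (adjusted p = 0.0088) without the 0h library of clone 4 replicate 2. G6pdx shares 418 exon bases with the antisense gene Ikbkg. Tkt, transketolase, of the non-oxidative part, rose by 0.24 ± 0.067 at 4h (adjusted p = 0.00603) from 158 to 201 CPM to 185 to 246. Tkt was 0.20 (adjusted p = 0.132) in clone 4 alone and 0.30 (adjusted p = 0.0312) in clone 8 alone. Taldo1, transaldolase, was at 48.9 to 64.0 CPM at 0h and 42.1 to 48.6 in rev, without overlap (-0.28 ± 0.082, adjusted p = 0.0136, and -0.23 and past the threshold no longer without the 0h library of clone 8 replicate 2). In clone 4 alone that value was -0.17 (adjusted p = 0.388). Of the 2 side branch genes, Bpgm, which makes 2,3-bisphosphoglycerate, was at 3.42 to 4.44 CPM at 4h and 1.33 to 2.66 in rev, without overlap (-0.94 ± 0.263, adjusted p = 0.0114; -0.75 and not called without the rev library of clone 8 replicate 1). Bpgm was also 0.82 ± 0.272 lower in rev than at 0h (log2 fold change -0.82, adjusted p = 0.0278), a call lost in 4 of 8 fits without 1 library. Pgm2, a phosphopentomutase-type sugar phosphomutase, stayed between 40.0 and 56.8 CPM and was called in none.

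Hif1a, the oxygen-regulated factor known to activate many of these genes, rose at 4h. It was at 48.6 and 48.5 CPM in clone 4 and 67.1 and 66.3 in clone 8 at 0h. It was at 54.2, 67.9, 69.7 and 76.7 CPM at 2h, 64.5, 66.2, 78.4 and 83.7 at 4h, and 59.8, 66.0, 61.6 and 63.5 in rev. Within each clone both 4h libraries lay above both 0h libraries. The log2 fold change was 0.34 ± 0.084 at 4h (adjusted p = 0.00192), -0.20 in rev against 4h (adjusted p = 0.103) and 0.14 in rev against 0h (adjusted p = 0.257). Rev against 4h was -0.08 (adjusted p = 0.707) in clone 4 alone and -0.37 (adjusted p = 0.0478) in clone 8 alone, and rev against 0h was 0.35 (adjusted p = 0.0376) and -0.08 (adjusted p = 0.683). Its transcript level says nothing of the protein, which is set mainly by its degradation. Of 17 tested hypoxia response genes that are no members, 4 rose and 4 fell at 4h (median -0.05), near the 17.2% and 16.8% of all genes. Among them Ankrd37 rose by 1.23 ± 0.37 (0.943 to 2.25 CPM in group means, adjusted p = 0.00927) and Vegfa fell by 0.93 ± 0.09 (47.0 to 24.3 CPM, adjusted p = 1.34e-09). In rev against 4h, 3 of the 17 rose and 3 fell, beside 7.93% and 8.43% of all genes, with Ankrd37 at -1.21 and Ndrg1 at 0.98. The Ankrd37 calls were lost without 2 libraries each, among them the 4h library of clone 4 replicate 1 (1.04 at 4h and -1.01 in rev), and without the 0h or the rev library of clone 4 replicate 2 (0.94 and -1.05). At 4h Ankrd37 was 1.85 (adjusted p = 0.00528) in clone 4 alone and 0.61 (adjusted p = 0.495) in clone 8 alone. In rev against 4h these were -1.32 (adjusted p = 0.0296) and -0.97 (adjusted p = 0.5). With the share of counts in the 8 models as a covariate both calls were lost (0.97, adjusted p = 0.0808, and -0.87, adjusted p = 0.239).

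The rest of the pathway was read from lists of other genes. Of 25 tested genes of glucose, glycogen and pyruvate metabolism outside the members, 2 rose and 8 fell at 4h, beside 17.2% and 16.8% of all genes, and 1 rose and 2 fell in rev against 4h, beside 7.93% and 8.43%. The same shares are the background of the shorter lists that follow. Gpd2, the mitochondrial glycerol-3-phosphate dehydrogenase of the glycerol phosphate shuttle, rose by 0.82 (39.1 to 68.9 CPM, adjusted p = 7.14e-09). Pdk4, a pyruvate dehydrogenase kinase tied to fasting, fell by 1.58 (3.01 to 1.12 CPM, adjusted p = 8.62e-04). In rev, G6pc3, a glucose-6-phosphatase, rose by 0.65 (adjusted p = 0.037; lost in 6 of 8 fits without 1 library) and Fbp2, a fructose-1,6-bisphosphatase, fell by 0.66 (adjusted p = 4.61e-04). Of 7 further tested pentose phosphate genes, 2 rose and 1 fell at 4h: the epimerase Rpe rose by 0.79 (33.7 to 58.5 CPM, adjusted p = 7.74e-08) and fell by 0.50 in rev (adjusted p = 3.22e-04), and H6pd, the enzyme of the endoplasmic reticulum, fell by 0.60 at 4h (adjusted p = 0.00104). Of the 5 glucose sensing genes, Mlxip rose by 0.52, Mlxipl (ChREBP) fell by 0.94 (21.2 to 10.9 CPM, adjusted p = 5.5e-07), and Txnip, a glucose-induced inhibitor of glucose uptake, fell by 0.75 (35.9 to 21.0 CPM, adjusted p = 6.63e-07). In rev, Mlxipl rose by 0.54 (0.41 and not called without the 4h library of clone 4 replicate 1) and Mlx fell by 0.47 (lost in 4 of 8 fits without 1 library). The Mlx value was -0.23 (adjusted p = 0.508) in clone 4 alone and -0.86 (adjusted p = 0.017) in clone 8 alone. Of the 6 serine branch genes none rose and 2 fell at 4h, Psph (-0.47, adjusted p = 0.027; lost in 4 of 8 fits without 1 library) and Mthfd2 (-0.38, adjusted p = 0.0159). The response of Mthfd2 at 4h differed between clones (clone 8 minus clone 4 -0.998, adjusted p = 0.00636): it was 0.13 (adjusted p = 0.521) in clone 4 alone and -0.86 (adjusted p = 5.07e-06) in clone 8 alone, and the pooled call was lost without the 0h library of clone 8 replicate 2 (-0.25) or without either 4h library of clone 8 (-0.30 and -0.29). In rev, Psat1 fell by 0.44 (adjusted p = 1.04e-04). Txnip and Mthfd2 were named after their values were seen, to complete these small counts, and Pdp2 to set it beside Pdp1.

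Clone 8 differed from clone 4 in 20 members over all 4 groups, with 14 higher and 6 lower, beside 15.4% and 13.7% of all genes. The medians were 0.10 and -0.01. The largest differences were Tpi1 (0.91 ± 0.059, adjusted p = 5.06e-14), Ldhb (-0.81 ± 0.079, adjusted p = 4.31e-10), Tigar (0.80 ± 0.061, adjusted p = 1.77e-12) and Gapdh (0.75 ± 0.056, adjusted p = 1.21e-12). In all groups together, Tpi1 was at 41.6 to 62.7 CPM in the 8 clone 4 libraries and 88.0 to 116 in the 8 of clone 8, Gapdh at 308 to 377 and 469 to 637, Tigar at 27.4 to 43.3 and 54.4 to 66.6, and Ldhb at 43.5 to 63.1 and 24.2 to 36.2. All 4 genes lie on chromosome 6 between Tpi1 at chr6:124810586-124814296 and Ldhb at chr6:142490249-142507957. Away from chromosome 6, Ldha (105 to 144 against 149.6 to 197 CPM, log2 fold change 0.64 ± 0.055, adjusted p = 2.39e-11) and Tkt (158 to 187 against 189.8 to 246) also had no overlap between the clones. With libraries scaled by size alone the median of all genes was -0.26, and fewer members were called higher in clone 8. Ldha was then at 0.38 (adjusted p = 0.0903) and Tkt at 0.03 (adjusted p = 0.902).

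Over the 5 Mb bins of chromosome 6, the median difference of all tested genes between clones was 0.34 to 0.62 in the 8 bins from 110 Mb to the end of the chromosome. This stretch was chosen after its values were seen and has no test. Its 223 tested genes had a median of 0.52, with 72.6% called higher in clone 8, against -0.05 for the 374 tested genes before it and -0.01 for the 11618 on other chromosomes. The median within it was 0.51 in uninduced cells, 0.45 after 2 h, 0.48 after 4 h and 0.51 with the MEK inhibitor, so the difference was there in every group. The 6 tested members of the stretch were Slc2a3 (0.21), Tpi1, Gapdh, Eno2 (0.26, adjusted p = 0.463), Tigar and Ldhb, of which Ldhb was the only one lower in clone 8. Ldhb shares 21.0% of its exon windows with Gm5514, so its counts are uncertain too. Of the other 33 tested members, 10 were higher and 5 lower, with a median of 0.07. Of all tested genes on other chromosomes 14.4% were higher and 13.7% lower, and of those before the stretch 13.6% and 17.1%. Whether the clones differ in the number of copies of this stretch was not tested. Hk2, on the same chromosome, lies outside it and did not pass the test (-0.07, adjusted p = 0.385).

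**Figure D5:**
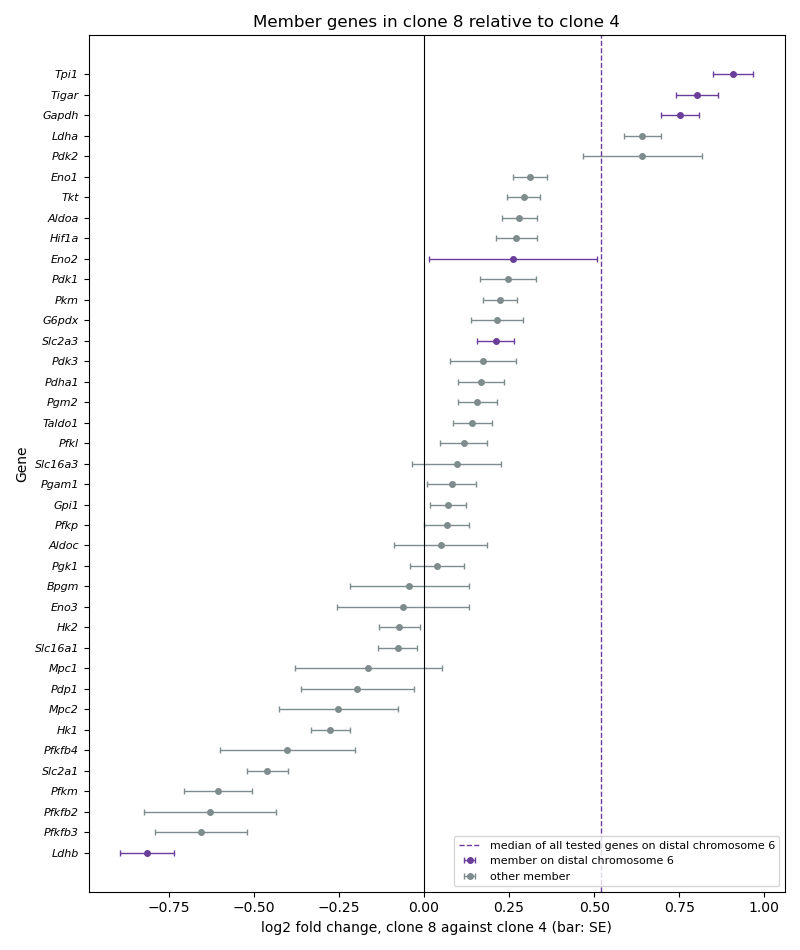
Log2 fold change of each tested member in clone 8 against clone 4 over all 4 groups, with bars of 1 SE, in order of size. Purple points are the 6 members on the distal stretch of chromosome 6, whose median over all 223 tested genes is the dashed line at 0.52. Tpi1, Tigar and Gapdh lie to the right of that line and Ldhb is the lowest of all members.

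The clones were also compared in their responses. The response of 1 member, Pfkp, the platelet-type phosphofructokinase, differed between them at 4h (clone 8 minus clone 4 -0.62, adjusted p = 0.0248), beside 0.311% of all genes. In clone 4 it went from 161 and 153 CPM at 0h to 205 and 199.9 at 4h, and in clone 8 from 201 and 236 to 192 and 175. At 2h the difference in Pfkp was -0.63 (adjusted p = 0.0506). No member differed at 2h (0.0901% of genes) or in rev against 4h (0.00819%) by the edgeR test, and with 2 libraries in each cell only large differences could pass.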

How the data were processed

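Per the labels, the 16 libraries were made from total RNA after rRNA depletion. The authors deposited raw read counts per gene; the values are whole and library totals differ. The submitters' processing notes name bcl2fastq 2.19.1, STAR 2.5.3a and the build mm10. The counting tool, annotation and strand setting were not given in the sources used here. Of 52636 identifiers, 52489 matched GENCODE M21, which gave symbols, positions, exon lengths and overlaps.

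The sample titles gave group, clone and replicate number. The analysis used edgeR 4.0.16 under R 4.3.3. filterByExpr over the 4 groups kept 12215 genes, TMM factors were applied, and 1 quasi-likelihood fit of all 16 libraries had terms for group and for clone. Contrasts were two-sided, with Benjamini-Hochberg adjustment over all tested genes at 0.05. A model of the 8 group and clone cells tested differences in response. The biological coefficient of variation was 0.0795. Members share exons or sequence with other genes where 50-base windows recurred. The pipeline was tested on simulated counts.

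The members, gene lists and tests were chosen with earlier results of these data known. Values in every library are given for the 3 members in each direction with the largest called change and a mean of at least 5 CPM in each of the 5 comparisons, and for Hk2, Slc2a1, Slc2a3, Ldha, Pkm, G6pdx and Hif1a. From each other list the gene with the largest called change in each direction was named at 4h against 0h and rev against 4h. Alternatives were RLE size factors, library size alone, removal of the 8 most abundant models or their share as a covariate, dropping the low-count filter or replacing it by a mean of 1 CPM or more, no clone covariate, a replicate block, DESeq2 1.42.0, fits to 2 groups or 1 clone, and leaving out each library. Same-numbered cultures did not deviate together (mean correlation of deviations 0.009, -0.294 to 0.187 over 12 pairs), and no label ties them.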

Additional observations from a re-analysis of the deposited data

Results flagged for a closer look

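Slc16a1 in the rev library of clone 8 replicate 1 was at 70.4 CPM, below the other 3 rev libraries at 77.1 to 78.0 CPM. It stood apart from them by more than Dixon's test allows for 4 samples. This was 1 of 56 groups tested (14 members in 4 groups), and chance alone marks about 1 in 20.

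The response of Pfkp to 4 h of induction differed between the clones by -0.62 on the log2 scale (clone 8 minus clone 4, adjusted p = 0.0248 by the edgeR interaction test), with 157 and 203 CPM as the clone 4 means at 0h and 4h and 218 and 184 CPM as those of clone 8.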

How the results depend on the processing

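Of the 47 called values of members, 45 kept their direction in every alternative, 27 kept their call without any 1 library and 17 with library size alone. Library size alone moved the median of all genes by -0.41 in rev against 4h, -0.32 in rev against 0h, -0.26 between clones, 0.10 from 2h to 4h and 0.09 at 4h against 0h. With it 1 member was higher and 1 lower at 2h, 3 and 2 at 4h, 1 and 0 from 2h to 4h, 0 and 9 in rev against 4h, 0 and 5 in rev against 0h, 3 higher in clone 8, and no response differed between clones. Of all 12215 genes, 204 were higher and 134 lower at 2h, 554 and 327 at 4h, and 88 and 12 from 2h to 4h. In rev 57 and 1671 were called against 4h and 105 and 905 against 0h, and between clones 288 and 1837. Scaling by size alone turned Slc16a1 (-0.10), Gapdh (-0.07), Slc2a1 (-0.20), Pdk1 (-0.16) and Hif1a (-0.19) in rev against 0h, and between clones Slc2a3 (-0.06), Pkm (-0.04), G6pdx (-0.04), Pgm2 (-0.11) and Hif1a (0). Without the clone covariate 2 members were lower at 2h, 4 higher and 2 lower at 4h, 2 and 0 from 2h to 4h, 1 higher in rev against 4h, and 1 higher and 5 lower in rev against 0h. Of all genes 462 were lower at 2h, 1459 higher and 1323 lower at 4h, and 129 and 90 from 2h to 4h. In rev 418 were higher than at 4h, and 876 higher and 576 lower than at 0h. In clone 4 alone 1 member was lower at 2h, 3 at 4h and 2 in rev against 0h, and 2 were higher and 0 lower at 4h against 2h. Of all genes, 327 were lower at 2h, 1286 at 4h and 554 in rev against 0h. At 4h against 2h, 269 genes were higher and 186 lower. In clone 8 alone 1 member was higher at 2h, 3 lower at 4h, 2 higher and 0 lower from 2h to 4h, and 0 higher and 2 lower in rev against 4h. Of all genes, 1208 were higher at 2h, 1033 lower at 4h, and 157 higher and 93 lower from 2h to 4h. In rev against 4h, 262 were higher and 314 lower. Fits to 1 clone have fewer samples. Gapdh at 4h was -0.04 in clone 4, Pgk1 at 4h 0 in clone 8, Slc2a1 in rev against 0h -0.12 in clone 4, and in clone 8 Hif1a in rev against 0h was -0.08, and Slc2a3 and Hk2 in rev against 4h 0.06 and 0.01, and Slc2a3 came to 0.02 when the share of counts in the 8 models was a covariate. None of these was called in the full data. At 4h against 2h, 2 members rose with that covariate, without the low-count filter or with the replicate block, which changed no other count by over 1.5 times. Of all genes 405, 320 and 426 rose in these fits, the second with 31361 genes tested. With the block Slc16a1 and Ldha lost that call, and Pkm at 4h passed the threshold (adjusted p = 0.0474). DESeq2 and a fit of the 2 groups alone each gave 5 lower at 4h, and the latter 8 lower in rev against 4h. Of all genes 1710 and 1832 were lower at 4h, and 1229 in rev against 4h with the latter. Removing the 8 models or the low-count filter let 1 response differ between clones at 2h. The cause of these shifts was not tested. Without 1 library at a time, members higher and lower numbered 3 to 4 and 1 to 6 at 2h, 8 to 11 and 4 to 8 at 4h, 2 to 4 and 1 from 2h to 4h, 2 and 3 to 6 in rev against 4h, 1 to 3 and 6 to 9 in rev against 0h, and 11 to 15 and 5 to 6 between clones. Those of all genes numbered 1065 to 1446 and 740 to 1198 at 2h and 1795 to 2059 and 1641 to 1960 at 4h. From 2h to 4h they numbered 301 to 418 and 261 to 381, and between clones 1639 to 1968 and 1410 to 1747. In rev they numbered 645 to 912 and 732 to 1016 against 4h. Against 0h they numbered 1221 to 1596 and 843 to 1212. Among uncalled values, leaving out 1 library turned Pgk1 (-0.03 to 0.17) and Ldha (-0.02 to 0.12) at 4h and Slc2a3 in rev against 4h (-0.06 to 0.02). Low members such as Eno2 and Pdp1 are limited by depth.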
